A study of Mus musculus with 7 samples.

Results

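Gapdh and 9 other enzymes of glucose breakdown (Hk1, Pfkm, Aldoa, Tpi1, Pgk1, Eno1, Eno2, Pkm and Ldhb) were described in RNA sequencing of the mouse prefrontal cortex, as 10 of the 43626 genes in the deposited table. The genes were chosen from their values in these same libraries, because Gapdh varied between them while the other enzymes varied little, so levels and spreads are given as a description without a test. All 10 passed the filter on low values (a value of at least 10 in at least 3 libraries) and were among the 17670 genes tested. All samples were prefrontal cortex from males of the strain C57BL/6J at 8 weeks of age. They made up 3 libraries of wild type (WT) and 4 of the genotype hDISC1AA/+, in which 1 Disc1 allele is altered. The series concerns phosphorylation of DISC1, a scaffold protein of neurons, and the labels do not describe how the allele was built, whether animals were pooled, or whether every library is from its own mouse. The p-values below thus set a group difference only against the spread of these samples within their groups, and that spread may be technical.

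Glycolysis splits glucose into pyruvate in the cytosol and yields ATP and NADH. Hexokinase and phosphofructokinase add phosphate, aldolase and triose phosphate isomerase make the triose phosphates, and glyceraldehyde-3-phosphate dehydrogenase (GAPDH) oxidises them. Phosphoglycerate kinase, enolase and pyruvate kinase complete the path, and lactate dehydrogenase interconverts pyruvate and lactate. In the cortex, neurons and astrocytes both express the pathway, and Gapdh is widely used as a reference gene because its transcript is taken to be steady. Gapdh has also left many processed pseudogenes in the mouse genome, which are reverse-transcribed copies without introns that a short read can match as well as it matches the gene.

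These copies are shown first because in 6 of the 7 libraries they held more reads than Gapdh itself. Gapdh lies on the minus strand of chromosome 6 (GRCm38, chr6:125161715-125166467). Its transcript Gapdh-201 has 7 exons and 1272 bases. In the GENCODE M21 annotation, 89 other genes shared at least 100 of its runs of 50 bases, a number set after seeing the data, and 82 of them have a row in the table. Of the 1223 such runs in Gapdh-201, 90.4% occurred in at least 1 copy, and of the 950 runs within its coding part all 950 did. The 70 bases below are bases 423 to 492 of Gapdh-201, counted from 1 at its 5′ end, in the coding part of exon 4 (chr6:125162962-125163031, minus strand), beside the same stretch of the 4 copies with the highest mean values among those with at least 900 shared runs. Capitals mark positions 438, 453 and 477, where a copy differs.
Gapdh: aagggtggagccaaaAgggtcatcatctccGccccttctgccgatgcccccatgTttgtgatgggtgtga
Gm7336: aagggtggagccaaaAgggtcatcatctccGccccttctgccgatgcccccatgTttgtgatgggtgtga
Gm5559: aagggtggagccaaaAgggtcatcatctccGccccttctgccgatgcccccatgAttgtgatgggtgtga
Gm13394: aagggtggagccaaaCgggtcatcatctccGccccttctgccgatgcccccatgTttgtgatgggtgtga
Gm12070: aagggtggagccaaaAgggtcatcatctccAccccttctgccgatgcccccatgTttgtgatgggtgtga
Gm7336 (chr7:51746647-51747878, plus strand) matched Gapdh-201 at 1198 bases with 0 mismatches and 2 gap bases. Gm5559 (chr5:95861714-95862715, plus strand) carried 1 mismatch to Gapdh-201, T477A. Gm13394 and Gm12070 also carried 1 each, A438C and G453A.

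Gapdh was the enzyme whose value differed most between libraries. Its normalized count (the deposited value, reads divided by 1 size factor per library) was 5593, 527 and 447 in WT replicates 1, 2 and 3. In hDISC1AA/+ it was 521, 571 and 4582 in replicates 1, 3 and 4. The remaining hDISC1AA/+ library, called unnumbered because its column name matches no sample title, had 1202. Each genotype thus held 1 library with a high value, WT replicate 1 and hDISC1AA/+ replicate 4, and the groups overlapped over nearly their whole range. Against the median of the 4 lowest libraries, which lay between 447 and 571, WT replicate 1 was 10.7-fold higher, hDISC1AA/+ replicate 4 was 8.74-fold higher and the unnumbered library 2.29-fold higher. The reads behind these values numbered 410 to 8714 per library.

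The other enzymes stayed close to their own means. The SD of log2(normalized count + 1) over the 7 libraries was 1.56 for Gapdh and 0.08 to 0.19 for the other 9, with a median of 0.15, so that the spread of Gapdh was 10.2 times that median. The highest library exceeded the lowest by 12.5-fold for Gapdh and by 1.17-fold (Pfkm) to 1.39-fold (Tpi1) for the rest. Over all genes tested the median SD was 0.23, and 94 of the 17670 genes had a larger SD than Gapdh. Among the 6821 genes with a mean normalized count of at least 1000, 8 did. These 8 included the Gapdh copies Gm7336 (SD 3.09) and Gm5559 (SD 1.86), and 3 genes of the mitochondrial genome, mt-Atp6, mt-Nd6 and mt-Tp; the remaining 3 were the gene models Gm10925, Gm28439 and Gm28438.

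**Figure D1:**
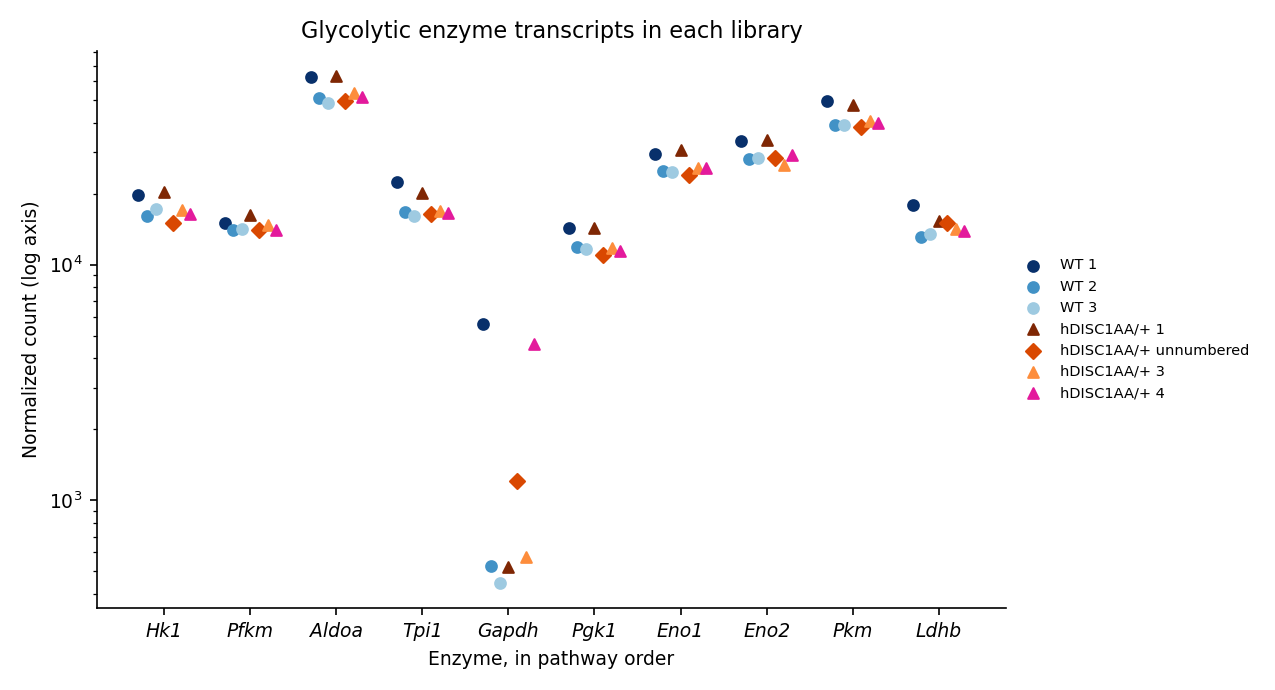
Normalized count (log axis) of each of the 10 enzymes, in pathway order, in 3 WT libraries (circles) and 4 hDISC1AA/+ libraries (triangles, and a diamond for the unnumbered library). Gapdh runs from 447 to 5593, while the libraries of every other enzyme lie within 1.39-fold of each other.

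**Figure D2:**
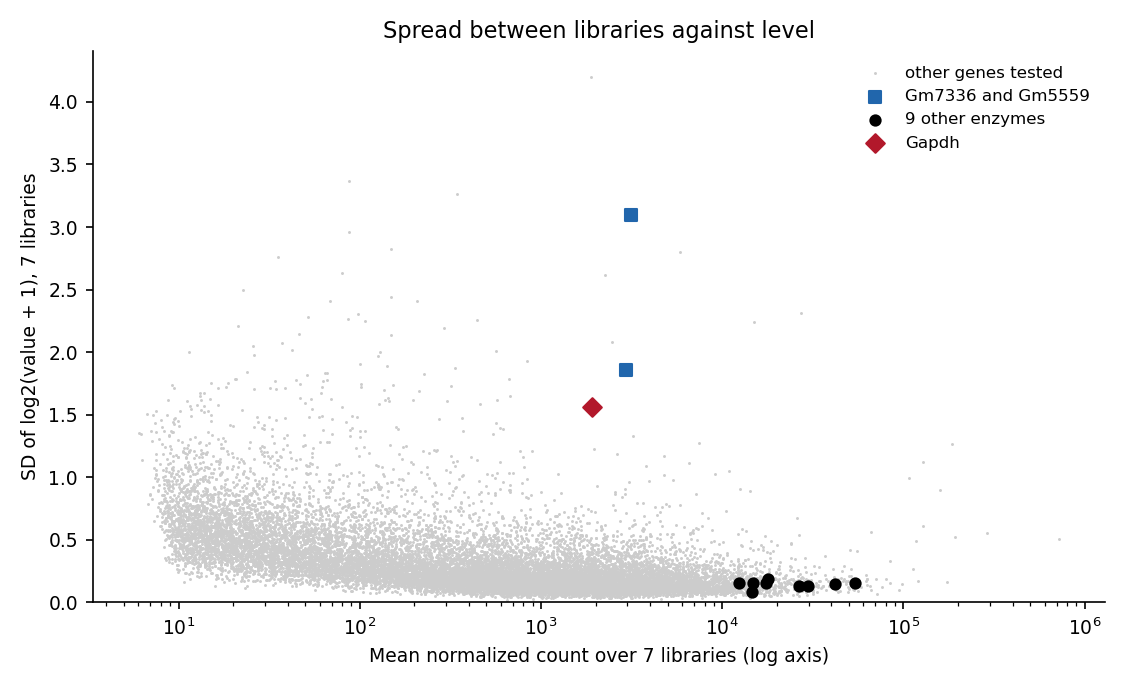
SD of log2(normalized count + 1) over 7 libraries against the mean normalized count (log axis) for the 17670 genes tested. Gapdh (diamond, 1.56) and its copies Gm7336 and Gm5559 (squares, 3.09 and 1.86) lie above the 9 other enzymes (black points, 0.08 to 0.19).

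The 2 most abundant Gapdh copies were far lower in WT replicate 1 than in the other 6 libraries. Gm7336 had a normalized count of 11.6 in WT replicate 1 and 3559 and 3688 in WT replicates 2 and 3. In hDISC1AA/+ it had 4429, 3535 and 3463 in replicates 1, 3 and 4 and 3259 in the unnumbered library. WT replicate 1, the library with the most Gapdh, thus had almost none of this copy. The title of that library is written in another style than the other titles. Whether that library was processed like the other 6 is not given in the sources used here. This bears on the WT mean and spread of Gapdh and on its genotype difference. Gm5559 was likewise lowest in WT replicate 1, at 113, beside 3173 and 3142 in WT replicates 2 and 3. In hDISC1AA/+ Gm5559 had 4078, 3335 and 3187 in replicates 1, 3 and 4 and 3523 in the unnumbered library. The other 80 copies in the table were far lower, with a highest mean of 143 and a sum per library of 786 to 1240.

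Summed over all 82 copies, the normalized counts outside Gapdh came to 1364 in WT replicate 1 and to 7518 to 9477 in the other 6 libraries. Gapdh itself held 80.4% of the reads of the gene and its copies together in WT replicate 1, 37.9% in hDISC1AA/+ replicate 4 and 13.5% in the unnumbered library. In the remaining 4 libraries it held 5.22% to 6.85%. hDISC1AA/+ replicate 4 differed from WT replicate 1 here, because its copies (7519) were as high as in the libraries with little Gapdh.

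When Gapdh was added to its copies, the spread narrowed. The sum was 6957, 8045 and 8129 in WT replicates 1, 2 and 3. In hDISC1AA/+ it was 9999, 8333 and 12101 in replicates 1, 3 and 4, with 8884 in the unnumbered library. The highest library was then 1.74-fold above the lowest, and the SD of the log2 sum was 0.26. That is above the other 9 enzymes (0.08 to 0.19) and the median of genes with a mean of at least 1000 (0.16). The lowest hDISC1AA/+ sum lay above the highest WT sum, with means of 7710 ± 653 (SD, n = 3) and 9829 ± 1666 (SD, n = 4), a separation that 5.04% of all genes tested also showed. The difference of 0.34 on the log2 scale did not pass the limma test (adjusted p = 0.974), and the sum was formed after seeing the data. How the authors' counting treated reads that match several places is not given in the sources used here, and its part in the values of Gapdh was not tested.

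**Figure D3:**
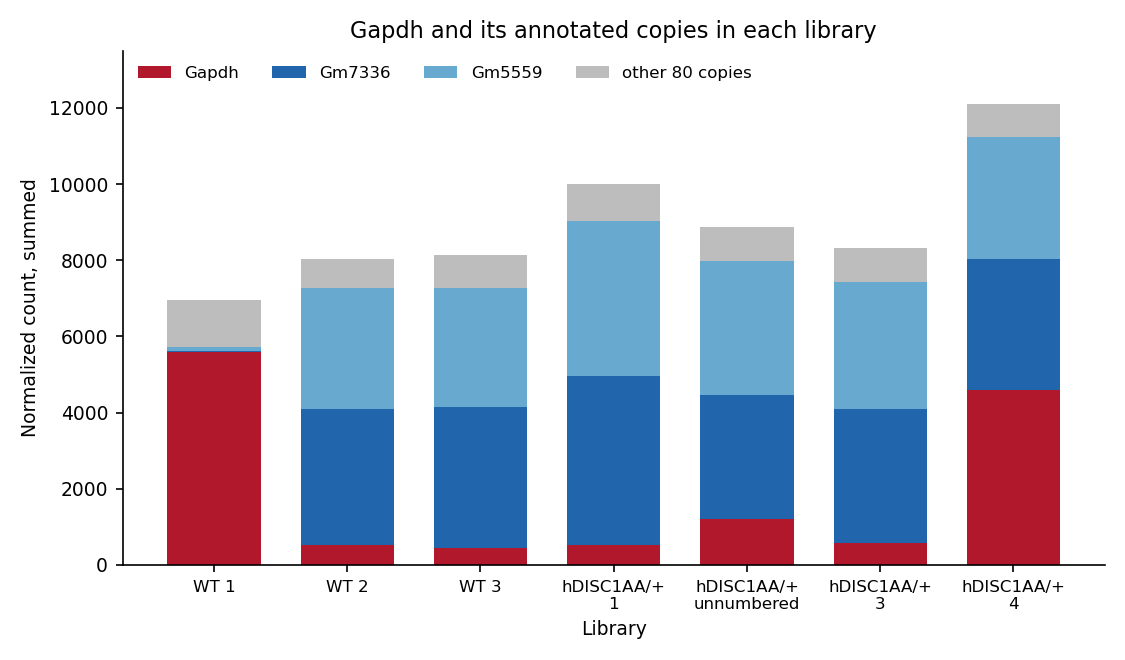
Normalized counts of Gapdh, Gm7336, Gm5559 and the other 80 annotated copies, stacked, in each of the 7 libraries. Gapdh makes up 80.4% of the stack in WT replicate 1, 37.9% in hDISC1AA/+ replicate 4 and between 5.22% and 13.5% elsewhere.

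The remaining enzymes had fewer copies, with fewer reads. The transcripts of Hk1, Pfkm, Aldoa, Tpi1 and Eno2 shared 0% of their 50-base runs with any gene at that limit. Pgk1 shared 68.0% of its runs with 3 genes, 2 of them in the table, which together had a normalized count of 53.9 to 145. Eno1 shared 72.2% with 3 genes, of which Eno1b and Gm4735 have rows. Their sum was 535 in WT replicate 1 and 721 to 1170 elsewhere, beside at least 23989 for Eno1 itself. The 2 copies of Pkm have no row, and the single copy of Ldhb had at most 23.7. Several members also overlap another gene: Gapdh overlaps Iffo1, Hk1 overlaps Hk1os, Pfkm overlaps Senp1 and Gm26513, Aldoa overlaps Fam57b and Tpi1 overlaps Spsb2. The strand setting of the counting is not given in the sources used here. Without strand, reads from stretches that genes on opposite strands share cannot be told apart. Gm26513 lies on the same strand as Pfkm, so strand would not separate that pair. The highest value among these neighbours was 3006, for Fam57b.

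The enzymes that prepare glucose for cleavage were high in the same libraries. Hk1, the main hexokinase of the brain (chr10:62268855-62379908, minus strand; all positions are GRCm38), had 19679, 16145 and 17157 in WT replicates 1, 2 and 3, and 20444, 17095 and 16375 in hDISC1AA/+ replicates 1, 3 and 4 with 15000 in the unnumbered library. Its highest library was hDISC1AA/+ replicate 1, then WT replicate 1. Pfkm (chr15:98092589-98132451, plus strand), the muscle-type subunit of phosphofructokinase, which catalyses the committed step, had 14975, 13985 and 14131 in WT, and 16314, 14685 and 14019 in hDISC1AA/+ replicates 1, 3 and 4 with 13993 in the unnumbered library. Pfkm was the steadiest of the 10, with an SD of 0.08 on the log2 scale, and 4.10% of the genes tested had a smaller one.

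Aldoa (chr7:126795234-126800751, minus strand), aldolase A, which cleaves the phosphorylated sugar into trioses, was the most abundant member. It had 62685, 51163 and 48779 in WT replicates 1, 2 and 3, and 63243, 53565 and 51532 in hDISC1AA/+ replicates 1, 3 and 4 with 49321 in the unnumbered library. Tpi1 (chr6:124810586-124814296, minus strand), triose phosphate isomerase, had 22463, 16722 and 16123 in WT, and 20219, 16853 and 16608 in hDISC1AA/+ replicates 1, 3 and 4 with 16356 in the unnumbered library. In both genes the first replicate of each genotype stood above all others, and the other 5 libraries lay close together.

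Below the step of Gapdh, Pgk1 (chrX:106187100-106203699, plus strand), the kinase of the first ATP-forming step, had 14300, 11842 and 11662 in WT replicates 1, 2 and 3. In hDISC1AA/+ it had 14275, 11722 and 11411 in replicates 1, 3 and 4, with 10984 in the unnumbered library. The enolases were Eno1 (chr4:150236721-150248879, plus strand), the form found in most cells, and Eno2 (chr6:124760053-124769673, minus strand), the neuronal form. Eno1 had 29436, 25001 and 24720 in WT, and 30671, 25675 and 25762 in hDISC1AA/+ replicates 1, 3 and 4 with 23989 in the unnumbered library. Eno2 had 33618, 28114 and 28456 in WT, and 33954, 26629 and 29173 in hDISC1AA/+ replicates 1, 3 and 4 with 28365 in the unnumbered library. Both genotypes again had their highest value in replicate 1.

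Pkm (chr9:59656368-59679375, plus strand), which encodes the muscle-type pyruvate kinases by alternative splicing, had 49716, 39172 and 39305 in WT replicates 1, 2 and 3, and 47456, 40686 and 39876 in hDISC1AA/+ replicates 1, 3 and 4 with 38578 in the unnumbered library. The table does not separate its splice forms. Ldhb (chr6:142490249-142507957, minus strand), the heart-type subunit of lactate dehydrogenase, had 17944, 13082 and 13534 in WT, and 15339, 14173 and 13842 in hDISC1AA/+ replicates 1, 3 and 4 with 14971 in the unnumbered library. The WT values of Ldhb spread wider than its hDISC1AA/+ values (SD of the log2 values 0.25 against 0.07).

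The 9 enzymes other than Gapdh shared 1 pattern over the libraries. WT replicate 1 and hDISC1AA/+ replicate 1 were the highest pair in all 9. WT replicate 1 came first in 4 (Tpi1, Pgk1, Pkm and Ldhb) and hDISC1AA/+ replicate 1 in 5. This pair of libraries was also the highest in Aldoc, Gpi1, Mdh1, Mdh2, Got1, Got2 and the neuronal marker Slc17a7. The pattern was thus not particular to the 9. Pfkp, Pgam1 and the neuronal markers Snap25 and Syt1 did not share it. The mean deviation of the 9 from their own means was 0.21 and 0.19 on the log2 scale in WT replicate 1 and hDISC1AA/+ replicate 1. Elsewhere it was -0.11 to -0.05. Within those other 5 libraries the highest value exceeded the lowest by 1.05-fold to 1.14-fold for the 9 and by 10.3-fold for Gapdh. Gapdh did not follow them, since it was 2.32 above its own mean in WT replicate 1 and 1.10 below it (a deviation of -1.10) in hDISC1AA/+ replicate 1. The Pearson correlation of Gapdh with each of the 9 over the 7 libraries ran from -0.12 (Pfkm) to 0.57 (Ldhb), given as a description.

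**Figure D4:**
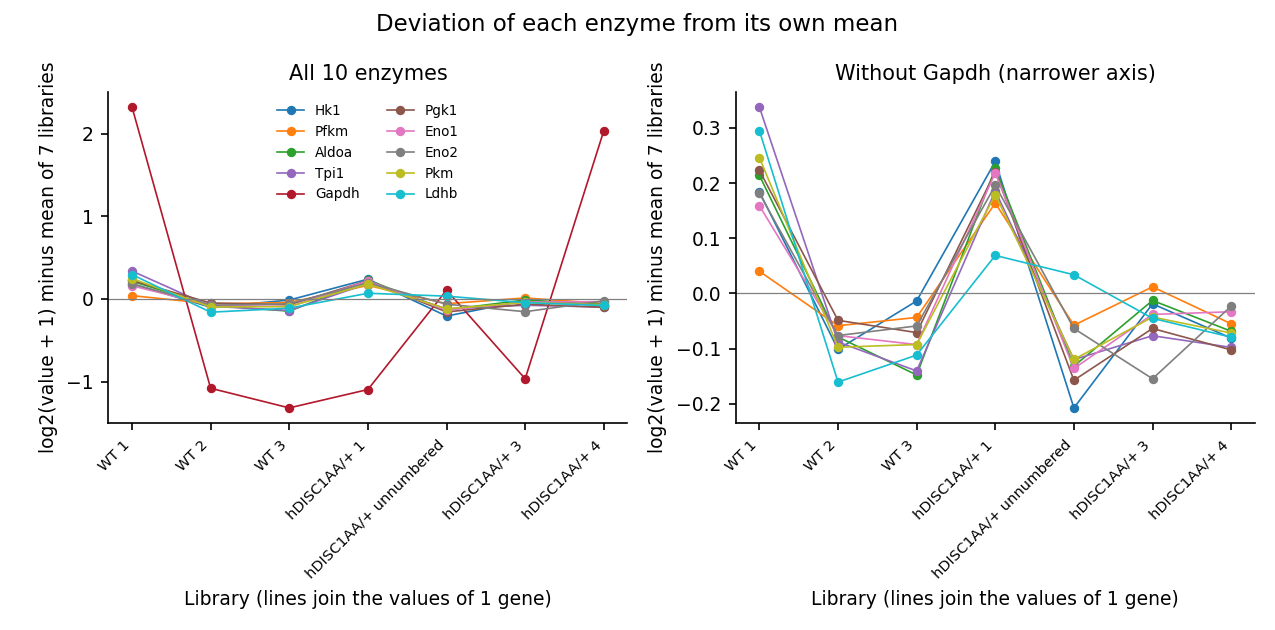
Deviation of log2(normalized count + 1) from the mean of 7 libraries for each enzyme, with all 10 on the left and without Gapdh, on a narrower axis, on the right. The 9 others peak in WT replicate 1 and hDISC1AA/+ replicate 1 (mean deviation 0.21 and 0.19), and Gapdh peaks in WT replicate 1 and hDISC1AA/+ replicate 4 (2.32 and 2.04).

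WT replicate 1 and hDISC1AA/+ replicate 1 also stood apart from the rest over all genes. On the first principal component (38.7% of the variance) WT replicate 1 lay at -70.4, and hDISC1AA/+ replicate 1 lay at the end of the second (66.4). WT replicate 1 was the deepest library (63845254 reads assigned to genes, against 33512557 to 36005116), and hDISC1AA/+ replicate 1 had 1.94% of its reads on mitochondrial genes, against 5.14% to 6.94%. Several cell type marker lists stood apart in WT replicate 1, and no marker of the lists was at 0 in every library. In hDISC1AA/+ replicate 1 the oligodendrocyte and endothelial lists (mean log2 deviations of -0.20 and 0.20) lay within the range of the other 5 libraries. So did the microglial, meningeal fibroblast and red blood cell lists. The neuronal and astrocyte lists of hDISC1AA/+ replicate 1 (-0.17 and -0.31) lay below that range and were the lowest of the 7 libraries. The summed normalized counts of 10 oligodendrocyte markers ranged from 42784 to 141186 in WT, with the top in replicate 1, and from 40571 to 47388 in hDISC1AA/+; all 10 were lower in hDISC1AA/+ by the group means and 0 passed the limma test. The 10 endothelial markers summed to 2990 to 12023 in WT, with the lowest in replicate 1, and to 9014 to 11005 in hDISC1AA/+; all 10 were higher in hDISC1AA/+ and 0 passed. The 12 neuronal markers summed to 384751 to 436826 in WT and 349809 to 398277 in hDISC1AA/+ (2 higher and 10 lower), and the 10 astrocyte markers to 211432 to 317144 and 186277 to 232043 (0 higher and 10 lower), with 0 called in each list. Red blood cell markers summed to 2836 to 17007 in WT and 4079 to 18093 in hDISC1AA/+ (4 higher and 1 lower), and meningeal fibroblast markers to 5946 to 10962 and 7530 to 12308 (9 higher and 1 lower), with 0 called. The part of these differences in the values of the enzymes was not tested. In whole tissue, fewer cells of a type and less RNA per cell cannot be told apart.

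The enzymes did not differ between the genotypes beyond the spread between libraries. By the group means of the log2 values 4 were higher in hDISC1AA/+ (Gapdh, Pfkm, Aldoa and Eno1) and 6 lower, and 0 of 10 passed the limma test at an adjusted p of 0.05, as did 0 of all 17670 genes (0%). edgeR and DESeq2 on the recovered reads also called 0 genes. An unadjusted p under 0.05 was found for 431 of 17670 genes with limma and 467 of 17540 with edgeR. With DESeq2 it was found for 604 of the 28381 genes entered. In 0 of 10 enzymes did the groups not overlap, beside 5.04% of all genes. The log2 difference, hDISC1AA/+ minus WT, lay between -0.06 and 0.04 for the 9 enzymes other than Gapdh, with adjusted p of 0.988 to 0.998, and its median was -0.03, beside -0.01 for all genes.

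Across the 9 enzymes the 95% confidence intervals ran from -0.37 (the lower bound of Tpi1) to 0.28 (the upper bound of Aldoa). The narrowest was that of Pfkm, at 0.04 with -0.17 to 0.24. For Gapdh the difference was 0.05 with an interval of -2.63 to 2.72 (limma, adjusted p = 0.998), so that several-fold changes in either direction were not detectable. It was 1.22 without WT replicate 1, -0.48 without WT replicate 2, -0.60 without WT replicate 3 and -0.63 without hDISC1AA/+ replicate 4. It was 0.42 without hDISC1AA/+ replicate 1, 0.37 without replicate 3 and 0.02 without the unnumbered library. Without both WT replicate 1 and hDISC1AA/+ replicate 1 it was 1.59 (limma, adjusted p = 0.9997).

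**Figure D5:**
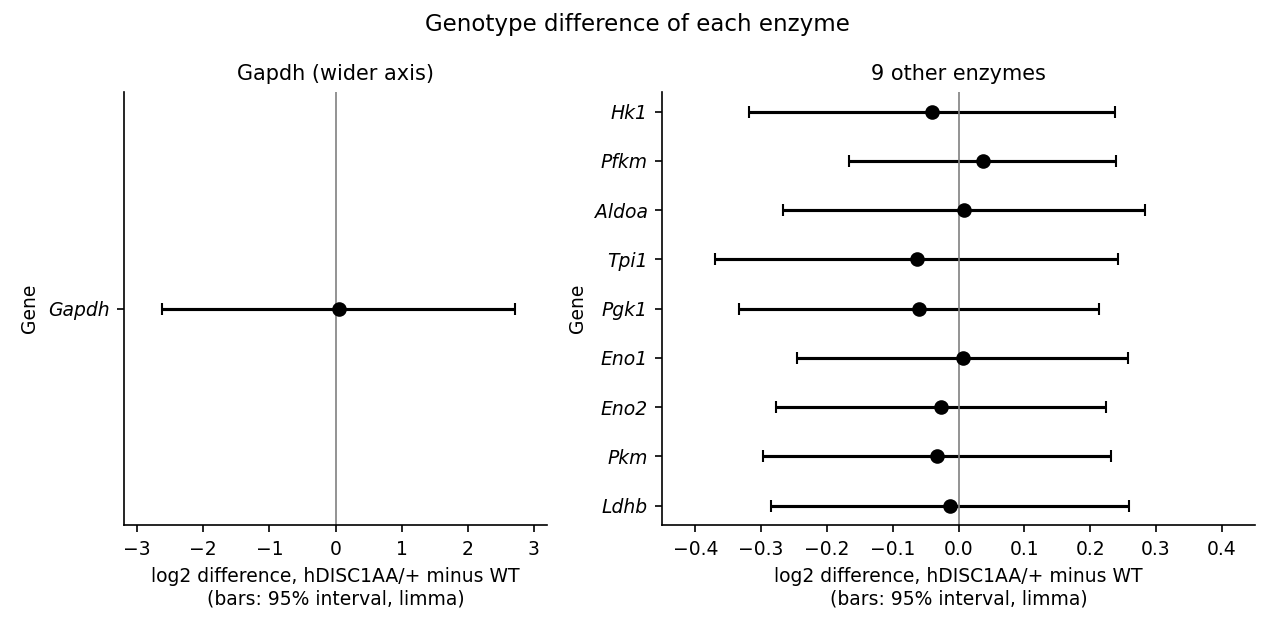
Log2 difference, hDISC1AA/+ minus WT, with its 95% confidence interval from limma (bars) for Gapdh (left, wider axis) and the 9 other enzymes (right). Every interval covers 0, and that of Gapdh runs from -2.63 to 2.72.

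Taken against the other enzymes of the same library, a measure that no scaling factor between libraries can alter except through the pseudocount, Gapdh kept its pattern. The log2 value of Gapdh minus the mean of the other 9 was -2.21, -5.32 and -5.56 in WT replicates 1, 2 and 3. In hDISC1AA/+ it was -5.61, -5.24 and -2.22 in replicates 1, 3 and 4 and -4.11 in the unnumbered library. WT replicate 1 and hDISC1AA/+ replicate 4 were thus alike, and the group means were -4.36 ± 1.87 (SD, n = 3) and -4.30 ± 1.52 (SD, n = 4), a difference smaller than either SD. The difference, 0.07, became 1.14 without WT replicate 1, -0.63 without hDISC1AA/+ replicate 4 and 1.58 without both WT replicate 1 and hDISC1AA/+ replicate 1. It was -0.41 without WT replicate 2, -0.53 without WT replicate 3, 0.50 without hDISC1AA/+ replicate 1, 0.38 without replicate 3 and 0.0046 without the unnumbered library.

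Levels were compared between the enzymes per kilobase of the main annotated transcript. Aldoa led at 35954 ± 4040 (SD, n = 7) normalized counts per kilobase, followed by Pkm at 17316 ± 1857. Eno1 (13056 ± 1257), Ldhb (11271 ± 1252), Tpi1 (11143 ± 1522) and Eno2 (10647 ± 1022) came next and overlapped each other. Pgk1 stood below them at 6747 ± 754, and Pfkm (5066 ± 297) and Hk1 (4785 ± 538) overlapped. Gapdh was last at 1510 ± 1728 per kilobase, with a range of 351 to 4397 whose top, WT replicate 1, lay within the range of Hk1. This place in the order rests on leaving out the copies. Gapdh summed with its copies, divided by the length of Gapdh-201, came to 7013 ± 1318 (SD, n = 7). The range of this sum, 5470 to 9513, covers that of Pgk1. Reads that match both the gene and a copy may be missing from the sum, so it need not be the level of Gapdh. Whether such reads were counted is not given in the sources used here.

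At steps with several isozymes, the members' share of the counts per kilobase was steady. Hk1 held 90.4% to 93.2% of the hexokinases, and Pfkm 49.9% to 52.8% of the phosphofructokinases, the rest being Pfkp and Pfkl. Aldoa held 76.3% to 81.4% beside Aldoc, the aldolase typical of astrocytes, at 18.5% to 23.7%. Eno1 held 53.3% to 56.6% of the enolases and Eno2 42.6% to 45.7%. Ldhb held 63.0% to 69.6% beside Ldha, the muscle-type subunit, at 30.4% to 37.0%. At the Gapdh step the shares moved more, since Gapdh ranged from 79.3% to 99.2% and Gapdhs, the sperm form, from 0.783% in WT replicate 1 to 20.7% in WT replicate 2. In counts per kilobase Gapdhs itself ranged from 34.7 to 108. Beside Gapdh summed with its copies, Gapdhs made up 0.631% to 1.69%.

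The genes around the pathway were summarised from 9 lists with 100 genes, 93 of them tested, of which 39 were higher and 54 lower in hDISC1AA/+ and 0 passed the limma test. The 16 tested isozymes and enzymes of glycolysis outside the 10 had a median log2 difference of 0.04 (9 higher, 7 lower). Their most abundant members were Aldoc (-0.08), Gpi1 (0.08), Pfkp (0.00) and Pgam1 (0.07), none called. Of 5 genes that set the activity of phosphofructokinase, such as Pfkfb3 (-0.22) and Tigar (0.00), 3 were higher and 2 lower, and of 10 glucose, lactate and pyruvate transporters 5 were higher and 5 lower. Slc2a3, the neuronal glucose transporter, differed by -0.09, and Slc2a1, the transporter of the blood-brain barrier, by 0.16.

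Pyruvate dehydrogenase, which carries pyruvate into the mitochondrial cycle, had 2 of 11 genes higher and 9 lower, with a median of -0.16 beside -0.01 for all genes, and 0 of 11 called. Its Pdha1 subunit differed by -0.27 and its regulatory phosphatase Pdp1 by -0.33. Of the 10 genes of the shuttles that return cytosolic NADH to mitochondria 3 were higher and 7 lower, with Mdh1 at -0.13 and Got1 at -0.02. The pentose phosphate pathway had 3 higher and 5 lower, glycogen metabolism 7 and 9, gluconeogenesis 2 and 1, and hypoxia-induced genes outside glycolysis 5 and 9, with none called. Vegfa, a growth factor induced by low oxygen, differed by 0.15 and Bnip3, a mitophagy receptor, by -0.02.

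In 7 of these 93 genes (7.53%, beside 5.04% of all genes) the groups did not overlap. Of these, Dlat and Slc16a7 are described here, chosen after their values were seen. Dlat, the acetyltransferase subunit of pyruvate dehydrogenase, had 5027, 4542 and 4408 in WT replicates 1, 2 and 3, and 3787, 4126 and 4178 in hDISC1AA/+ replicates 1, 3 and 4 with 4074 in the unnumbered library. Its log2 difference was -0.20 (limma, adjusted p = 0.974). Slc16a7, a monocarboxylate transporter of neurons, had 797, 750 and 923 in WT, and 499, 704 and 727 in hDISC1AA/+ replicates 1, 3 and 4 with 570 in the unnumbered library, a difference of -0.41 (limma, adjusted p = 0.974). The gap between the groups was narrow in both, and neither passed the threshold.

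The protein-coding genes most like Gapdh, by the Pearson correlation of log2 values over the 7 libraries among 6738 genes with a mean of at least 1000, were Chmp3 (0.95), Maob (0.95), Seh1l (0.94), Tspyl1 (0.92) and Nsa2 (0.92). Their own ranges were small, from 0.16 to 0.49 on the log2 scale. Maob, monoamine oxidase B of astrocytes, had 1359, 965 and 978 in WT replicates 1, 2 and 3, and 1022, 1062 and 1246 in hDISC1AA/+ replicates 1, 3 and 4 with 1040 in the unnumbered library. Like Gapdh it was highest in WT replicate 1 and next in hDISC1AA/+ replicate 4. With 7 points and 6738 genes searched, such values are a description of these libraries only.

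Because the 9 other enzymes moved together between libraries, their promoters were searched for the letters ACGTG. These letters are a form of the core of the sites bound by hypoxia-inducible factors, which are known to switch on glycolytic genes at low oxygen. The form GCGTG was not searched, so a window without ACGTG may still hold that core. Windows of 250 bases before to 50 after each start came from RefSeq (GRCm38.p6), and both strands were read, so that CACGT on the strand shown is a match and CACGTG would hold a match on each. The letters occurred in 8 of 19 windows of the 10 enzymes (42.1%), and in 19.6% of all 32851 windows. By gene they occurred in 6 of the 10, Gapdh among them, beside 21.8% of all genes. A gene counts here if any of its windows holds the letters, so genes with several windows are more likely to count. A pair of overlapping Aldoa windows among the 8 holds the same match. Pgk1 (chrX:106186850-106187149, plus strand) held 2 matches, and the Aldoa window (chr7:126799205-126799504, minus strand) 1. Both are shown because these genes followed the shared pattern and carry the letters, in capitals.
Pgk1: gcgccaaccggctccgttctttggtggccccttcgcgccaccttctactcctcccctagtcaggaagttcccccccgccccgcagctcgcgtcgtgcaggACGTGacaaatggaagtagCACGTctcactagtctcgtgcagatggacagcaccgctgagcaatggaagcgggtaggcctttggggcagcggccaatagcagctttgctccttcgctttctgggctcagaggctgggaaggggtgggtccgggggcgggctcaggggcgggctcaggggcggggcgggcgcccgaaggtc
Aldoa: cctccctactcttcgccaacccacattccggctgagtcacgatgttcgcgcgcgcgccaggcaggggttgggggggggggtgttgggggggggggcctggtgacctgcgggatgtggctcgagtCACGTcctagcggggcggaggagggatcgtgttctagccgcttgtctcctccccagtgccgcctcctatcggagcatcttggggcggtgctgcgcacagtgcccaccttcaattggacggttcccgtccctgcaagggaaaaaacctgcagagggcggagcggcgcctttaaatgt
The windows of Eno1, Eno2, Tpi1 and Ldhb, which also followed the shared pattern, did not hold these letters. Gapdh, which did not follow that pattern, held 1 match in its window. A match is a description of the letters in the window. The shared pattern was also present in genes outside the 9, such as Mdh2 and Slc17a7. The 14 tested hypoxia-induced genes outside glycolysis had mean log2 deviations of -0.01 in WT replicate 1 and -0.11 in hDISC1AA/+ replicate 1. Elsewhere that list lay between -0.04 and 0.11. The 9 enzymes had 0.21 and 0.19 in those first replicates. A part of hypoxia-inducible factors in the shared pattern was not tested.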

How the data were processed

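RNA sequencing of 7 prefrontal cortex libraries was analysed from the table that the authors deposited. Its values are a signal, gene counts that the authors divided by 1 size factor per library: all values above 0 were whole multiples of 1 step per column, within 0.01 reads (100% of values), which gave back the reads. Tools listed in the submitters' processing notes, without their order, are HISAT2 2.1.0, HTSeq 0.6.1, Trimmomatic 0.39 and DESeq2 1.26.0, with build mm10. The sources used here do not give the annotation, the strand setting or how multi-mapping reads were treated. Of the 7 columns, 6 match a sample title; the unnumbered hDISC1AA/+ library has the ending of that genotype but a number found in no title. Left out were 3 genes whose identifiers and values are split over lines (0.012% to 0.0169% of the values). Symbols and coordinates came from GENCODE M21 (GRCm38), which matched 42459 of the 43626 identifiers.

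After a filter that required a value of 10 or more in 3 or more libraries, genes were tested with limma 3.58.1 (R 4.3.3; trend, robust) on log2(value + 1), two-sided, with Benjamini-Hochberg adjustment over 17670 genes and a threshold of 0.05; such differences understate changes of genes with low values. edgeR 4.0.16 and DESeq2 1.42.0 on the recovered reads, other scalings, filters, a larger pseudocount, array weights, a correction for GC content and length, and left-out libraries were alternatives. The calculation was tested on simulated data. The members and lists were chosen with earlier results of these data known. All members are named, and of each list up to 4 of its genes with the largest mean; Ldha, Gapdhs, Pfkl, Dlat and Slc16a7 were named after seeing values. An item withheld from this text is not reported here. The genes most like Gapdh are the 5 with the highest correlation. Copies are genes sharing at least 100 runs of 50 bases with a main transcript.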

Additional observations from a re-analysis of the deposited data

Results flagged for a closer look

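In the 4 hDISC1AA/+ libraries the gap between the highest library and the next, as a share of the group's range, exceeded Dixon's 95% critical value for 4 samples in 2 of 13 quantities examined (the 10 enzymes, Gm7336, Gm5559 and the sum of Gapdh with its copies). For Gapdh it was replicate 4, at 4582 normalized counts, with a gap of 0.832 of the range. For Tpi1 it was replicate 1, at 20219.5 normalized counts, with a gap of 0.871. Because Gapdh was chosen for its spread over these libraries, its gap is a description and no test. Chance flags about 1 in 20 such groups, and the Gapdh value lies just past the limit. The 3 WT libraries were too few for this rule.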

How the results depend on the processing

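No gene was called under any of 19 alternatives, and of 190 log2 differences of the 10 enzymes none of the 189 with an adjusted p passed the threshold (smallest 0.631), although 43 changed sign. No paired analysis was possible because the labels give no replicate numbers that the genotypes share, only an order of deposit. The SD of Gapdh became 0.26 once each enzyme was summed with its copies, an alternative added after seeing the data, and the median SD of the other 9 became 0.04 without the libraries WT replicate 1 and hDISC1AA/+ replicate 1. Genes at an unadjusted p under 0.05 numbered 218 to 1823 over these fits, which held from 14375 to 28381 genes each. Each enzyme had at least 410 reads in every library. The median difference of all genes moved by 0.06 with upper-quartile factors and by 0.07 with the total of nuclear genes, so the changes of sign under these scalings are of the size of that shift. The cause of the other changes of sign was not tested.

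The log2 difference of Gapdh was -0.35 with edgeR and -0.35 with DESeq2 on the recovered reads, which gave it no p-value. With upper-quartile factors signs changed to 0.0178 for Hk1, 0.0311 for Eno2, 0.0254 for Pkm, 0.0449 for Ldhb. With scaling by the total of nuclear genes they changed to 0.0298 for Hk1, 0.00641 for Tpi1, 0.00979 for Pgk1, 0.0432 for Eno2, 0.0374 for Pkm, 0.0569 for Ldhb. With array weights they changed to 0.0359 for Tpi1, 0.0219 for Pkm, 0.0758 for Ldhb, and Gapdh, with no change of sign, moved to 1.35. With the correction for GC content and length they changed to -0.0294 for Gapdh, -0.0267 for Pfkm, -0.0704 for Aldoa, -0.0728 for Eno1. Without WT replicate 1 and hDISC1AA/+ replicate 1 they changed to 0.0161 for Tpi1, 0.017 for Pkm, 0.11 for Ldhb. With each library left out in turn, the log2 difference ranged from -0.63 to 1.22 for Gapdh, -0.13 to 0.0405 for Hk1, -0.013 to 0.0668 for Pfkm, -0.0668 to 0.12 for Aldoa, -0.15 to 0.0872 for Tpi1, -0.14 to 0.0343 for Pgk1, -0.0657 to 0.0874 for Eno1, -0.10 to 0.0563 for Eno2, -0.10 to 0.0813 for Pkm, -0.10 to 0.13 for Ldhb; without the unnumbered hDISC1AA/+ library Hk1 was at 0.0234 and Pkm at 0.00279.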
